A study of Mus musculus with 6 samples.

Results

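The genes described here encode receptors for GABA in the dorsal root ganglion (DRG). They were listed by symbol as Gabra2, Gabra3, Gabrb2, Gabrg1, Gabbr1 and Gabbr2, and members are the probe sets that the array's annotation pairs with one of these symbols alone. In this way 5 of the 6 genes were found, with 18 probe sets among the 18193 genes that have a probe set of their own. Gabbr2 had no probe set by this rule and was not analysed here. The probe set with the highest mean log2 value over the 6 arrays, called the brightest, stands for its gene, and the others are given beside it.

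GABA is the main inhibitory transmitter of the central nervous system. GABA-A receptors are chloride channels assembled from alpha, beta, gamma and other subunits, and GABA-B receptors are G protein-coupled receptors made of one GABBR1 and one GABBR2 protein. Sensory neurons of the DRG carry both classes on their somata and central terminals. Because these neurons hold a high internal chloride concentration, opening of GABA-A channels depolarizes them, and in the spinal cord this depolarization is tied to presynaptic inhibition of the afferent input.

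Meis1cko mice at P60, labelled as Meis1 mutant, carry a floxed Meis1 exon that encodes part of the homeodomain and a Nav1.8-Cre transgene, named for a sodium channel (gene Scn10a) of most nociceptors, so that cells without this channel keep the exon. They were set against control mice of the same age, whose alleles the labels do not give. Total RNA of cervical, thoracic and lumbar DRGs was hybridized to 1 single-colour Affymetrix array per mouse, with 3 Meis1cko and 3 control mice, which the labels call biological replicates. Both sexes were used in the study, and the labels do not give the sex of these mice.

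Every value is a normalized intensity on a linear scale, with array medians between 62.5 and 65.5. Meis1 itself had intensities of 66.0, 72.1 and 64.2 in Meis1cko DRGs against 110, 144 and 90.2 in control DRGs on its brightest probe set. The replicate 3 arrays of both genotypes differed from the remaining 4. For Actb, the signal at the 3′ end exceeded that at the 5′ end by 0.44 and 0.42 on the log2 scale on the Meis1cko and control replicate 3 arrays. It did so by 1.66 on Meis1cko replicate 1 and by 1.23 to 1.32 on the others. Results are therefore also given without the replicate 3 arrays. Summed over their markers, fibroblast genes (all 5 measured below 0 in log2 difference) lay between 6393 and 8355 in Meis1cko and between 9082 and 14352 in control DRGs, and Schwann cell genes (4 of 4 below 0) between 22821 and 24237 against 24266 and 26639. Large neuron genes (7 of 7 above 0) lay between 22176 and 23727 in Meis1cko DRGs, against 20449 to 21607. None of the markers in these lists passed the adjusted threshold in limma. Of these, 3 fibroblast, 1 Schwann cell and 2 large neuron markers had an unadjusted p under 0.05, as 2.56% of all genes had. With the replicates paired, Lum (log2 difference -1.34, adjusted p = 0.00717 in limma) and Pmp2 (-1.52, adjusted p = 0.0252), a fibroblast and a Schwann cell marker, were lower in Meis1cko DRGs. In that paired fit 10 of all 18193 genes were called lower. The sums of the pan-neuronal, satellite glia, endothelial and macrophage markers overlapped between the genotypes. Skeletal muscle markers summed to 371 to 874 in Meis1cko DRGs, against 2788, 799.6 and 229 in control replicates 1, 2 and 3. The part of these shifts in the results below was not tested, and in whole ganglia fewer cells of a type cannot be told apart from less RNA per cell. The 5 measured spinal cord interneuron markers were dim, summing to 232 to 248 in Meis1cko and 224 to 238 in control DRGs, and the 5 nociceptor markers summed to 26652 to 28498 and 27105 to 27862. Among these Scn10a, the gene whose name the Cre line carries, had 1213, 950 and 993 in Meis1cko against 752, 696 and 804 in control DRGs. Its log2 difference was 0.48 (unadjusted p = 0.00975 in limma), which did not pass the adjusted threshold. Of all genes, 3.12% did not overlap in this direction. The other nociceptor markers had log2 differences of 0.03 (Tac1), 0.005 (Prph), -0.06 (P2rx3) and -0.22 (Trpv1).

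None of the 5 measured GABA receptor genes was higher or lower in Meis1cko DRGs at an adjusted p under 0.05 in limma, over all 45037 probe sets, a threshold that 0.0055% of the 18193 genes passed. Gabra3 had the smallest p. It was lower in all Meis1cko mice than in all control mice, while Gabra2 had the highest log2 difference, with a large spread between mice. Gabrb2, Gabrg1 and Gabbr1 lay within 0.2 of 0 on the log2 scale. At the thresholds of the study's methods, a fold change over 1.5 and an unadjusted p under 0.05, none of the 5 genes passed in limma, where 0.781% of all genes did. Of the 5, 1 gene (Gabra3) had an unadjusted p under 0.05, as 2.56% of all genes had. By genotypes that do not overlap, 1 of the 5 genes was lower, where 3.82% of all genes were, and 0 were higher, where 3.12% were.

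**Figure D1:**
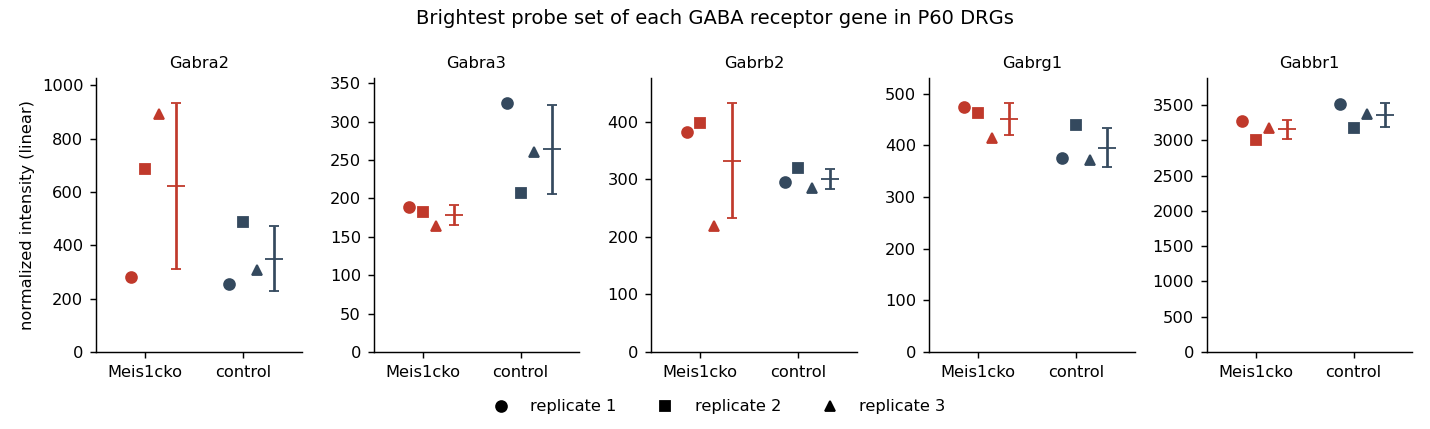
Normalized intensity (linear scale) of the brightest probe set of the 5 measured genes in each Meis1cko and control mouse at P60, with the mean and SD of each genotype beside the points and symbols for the replicate numbers. The Gabra3 values of Meis1cko mice (164 to 188) lie below those of control mice (208 to 324), and the genotypes overlap for the other 4 genes.

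Gabra3 encodes an alpha subunit of the GABA-A receptor, the kind of subunit that sets the response to benzodiazepines. On its brightest probe set (1436957_at) intensities were 188, 182 and 164 in Meis1cko mice, against 324, 208 and 260 in control mice. All Meis1cko values lay within a narrow band below the lowest control value, and the control mice spread more widely. The means were 178 ± 12.9 in Meis1cko and 264 ± 58.3 in control DRGs (SD, n = 3 mice each), and the fitted ratio was 0.685 with a 95% interval of 0.513 to 0.914. This is a log2 difference of -0.55 (SE 0.18, unadjusted p = 0.0171, adjusted p = 1.0 in limma). The groups give an exact permutation p of 0.1, two-sided, the smallest that 3 mice against 3 allow. Within the replicate numbers the Meis1cko array was lower each time, by log2 differences of -0.78, -0.19 and -0.67. With the replicates paired, the unadjusted p was 0.00506 and the adjusted p 0.400 in limma. Without the replicate 3 arrays the log2 difference was -0.48 (unadjusted p = 0.0573 in limma). Without control replicate 1, the highest control and the array with the most muscle marker signal, it was -0.39 (unadjusted p = 0.0525 in limma), and without control replicate 2, the lowest, -0.71.

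The other Gabra3 probe set (1421263_at) did not carry the same pattern. It had 21.7, 31.6 and 59.4 in Meis1cko mice and 26.6, 26.6 and 83.4 in control mice. Both replicate 3 arrays were the highest of their genotype, and the genotypes overlapped. Its log2 difference was -0.18 (95% interval -1.41 to 1.05), and over the 6 arrays its log2 values had a Pearson r of -0.00 with those of the brighter probe set, given as a description.

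Gabra3 lies on the X chromosome at chrX:72432676-72656919 (GRCm38.p6, minus strand), between the genes of the epsilon and theta subunits, Gabre and Gabrq, with Magea10 as its neighbour on the side of Gabre. Since a Meis factor is deleted in these mice, the 250 bases before each annotated start were read for TGACAG, the core letters bound by MEIS proteins, or its reverse complement CTGTCA. Such letters were in 15.9% of 32851 promoter windows, and in 3 of the 9 windows of the 6 listed genes. Those 3 hold only 2 sites, since the 2 windows of Gabra3 overlap and share 1 match, and the other is in 1 of the 3 windows of Gabrb2. The windows of Gabra3, whose genotypes did not overlap, and of Gabra2, which had the highest log2 difference, are shown 5′ to 3′ from RefSeq, with the motif in capitals. A match is a description of the letters and not of binding.

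Gabra3, chrX:72656920-72657169, minus strand, with the match beginning 21 bases before the start: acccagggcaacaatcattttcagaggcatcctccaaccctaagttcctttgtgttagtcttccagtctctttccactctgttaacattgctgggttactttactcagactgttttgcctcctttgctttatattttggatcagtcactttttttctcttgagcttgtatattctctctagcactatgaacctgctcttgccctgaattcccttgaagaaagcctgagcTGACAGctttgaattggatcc
Gabra2, chr5:71095850-71096099, minus strand, with no match: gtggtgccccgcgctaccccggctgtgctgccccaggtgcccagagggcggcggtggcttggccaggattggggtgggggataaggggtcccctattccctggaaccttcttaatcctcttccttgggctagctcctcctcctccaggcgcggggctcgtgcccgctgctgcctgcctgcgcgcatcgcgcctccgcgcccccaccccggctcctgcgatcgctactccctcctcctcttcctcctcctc

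The windows also differ in base composition, with 42.4% G and C for Gabra3 and 70.0% for Gabra2. Gabrg1 had 35.6%, and Gabbr1 and Gabbr2 had 66.0% and 80.8%.

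Gabra2, the gene of another alpha subunit, had the largest spread between mice among the 5 brightest probe sets. Its probe set 1421738_at had 282, 687 and 894 in Meis1cko mice and 256, 486 and 307 in control mice. The Meis1cko values of replicates 2 and 3 lay above all controls, and that of replicate 1 lay among them. The means were 621 ± 311 in Meis1cko and 350 ± 121 in control DRGs (SD, n = 3 mice each). The log2 difference was 0.73 (SE 0.44, 95% interval -0.30 to 1.75, adjusted p = 1.0 in limma), within the spread between mice. The SD within genotypes was 0.70 on the log2 scale, larger than that of 99.1% of the 12178 genes at or above the median intensity.

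Both next brightest probe sets of Gabra2 moved with the brightest across the arrays. The probe set 1455444_at had 248, 644 and 447 in Meis1cko mice against 178, 427 and 167 in control mice, and 1443865_at had 91.2, 180 and 249 against 72.8, 144 and 90.6. In all 3 probe sets the Meis1cko array exceeded the control array of the same number, and the replicate 1 arrays were the lowest Meis1cko values. Their log2 differences were 0.83 and 0.70. Over the 6 arrays the log2 values of the brightest probe set had an r of 0.88 with 1455444_at and 0.99 with 1443865_at.

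On the brightest probe set the differences within replicate numbers were 0.14, 0.50 and 1.54, so that replicate 3 gave most of the mean. Without the replicate 3 arrays the log2 difference was 0.32, without Meis1cko replicate 3 alone 0.39, and without Meis1cko replicate 1 it was 1.22. The labels do not say what the replicate numbers stand for, and the pairing was taken from the values of these arrays. With the replicates paired, Gabra2 passed the fold and p thresholds of the methods (unadjusted p = 0.0189 in limma), as 0.429% of all genes did in the higher direction. Its adjusted p was 0.601. The paired fit gave 1455444_at a p of 0.0025 before and 0.303 after adjustment in limma. The remaining probe sets, 1449807_x_at and 1420299_at, were dim, with means of 19.8 and 11.6 in Meis1cko and 18.8 and 10.8 in control DRGs, under the lowest 25th percentile of an array, 20.8. Their log2 differences were 0.10 and 0.11, and that of 1449807_x_at turned to -0.13 without the replicate 3 arrays.

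**Figure D2:**
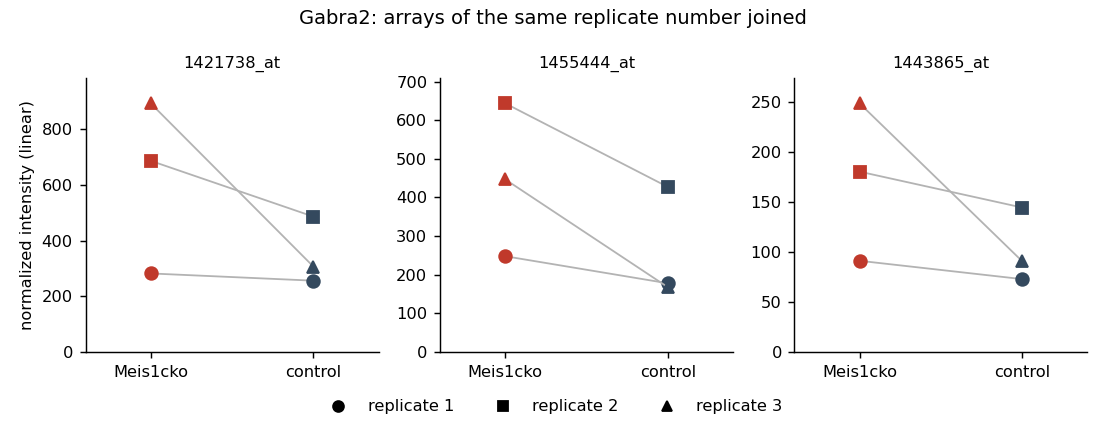
Normalized intensity (linear scale) of the 3 brightest Gabra2 probe sets, with the Meis1cko and control arrays of the same replicate number joined by a line. Every line falls towards control, from a log2 difference of 0.14 for replicate 1 of the brightest probe set to 1.54 for its replicate 3, and the genotypes overlap in each panel.

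Gabrb2 encodes a beta subunit, which takes part in the GABA binding site and is needed for assembly of the channel. Its brightest probe set (1429685_at) had 383, 398 and 218 in Meis1cko mice and 296, 319 and 285 in control mice. The Meis1cko replicate 3 array was the lowest of all and the other Meis1cko arrays were the highest. The log2 difference was 0.10 (SE 0.23, 95% interval -0.45 to 0.65). It was 0.34 (unadjusted p = 0.0432 in limma) without the replicate 3 arrays, where the genotypes no longer overlapped, as 14.8% of all genes did in this direction with 2 arrays against 2, and 0.38 without Meis1cko replicate 3 alone, while it turned to -0.025 without Meis1cko replicate 1 and -0.053 without Meis1cko replicate 2. The next probe set, 1428203_at, had 302, 272 and 247 against 205, 247 and 228. Its lowest Meis1cko value lay just below the highest control value, with 246.7 against 247.0, and the log2 difference was 0.27 (95% interval -0.04 to 0.59). The probe sets 1428204_at and 1428205_x_at, which share their source accession with it, had 0.03 and 0.09, and the dim 1450319_at had -0.35. No probe set of Gabrb2 passed the adjusted threshold.

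Gabrg1 encodes a gamma subunit, which joins alpha and beta subunits in the channel. It had 474, 462 and 415 in Meis1cko mice against 376, 440 and 372 in control mice on its brightest probe set (1460408_at), where only control replicate 2 lay above a Meis1cko value. The means were 451 ± 31.1 in Meis1cko and 396 ± 38.1 in control DRGs (SD, n = 3 mice each), and the log2 difference was 0.19 (95% interval -0.11 to 0.49, adjusted p = 1.0 in limma). The difference within replicate numbers was 0.34, 0.07 and 0.16, above 0 each time, and without the replicate 3 arrays the log2 difference was 0.20. The other probe set (1427227_at) gave 0.19 with an interval of -0.64 to 1.03, and its replicate 3 arrays were its highest values in both genotypes (100 in Meis1cko and 102 in control DRGs).

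Gabrg1 and Gabra2 are neighbours on chromosome 5 (70751047 to 70842617 and 70958392 to 71095849, GRCm38.p6), followed by Cox7b2, which encodes no GABA receptor, and from 71569734 by the alpha subunit gene Gabra4 and the beta subunit gene Gabrb1. The brightest probe sets of the 4 receptor genes had log2 differences above 0, with 0.19 for Gabrg1, 0.73 for Gabra2, 0.26 for Gabra4 and 0.17 for Gabrb1, and none passed the adjusted threshold. Of all 18193 genes, 8336 lay above 0. Without control replicate 3 the log2 differences were 0.07 for Gabra4 and -0.0096 for Gabrb1. The dimmer probe sets of Gabrb1 had 0.23, 0.18 and -0.11. Gabrb1 is named for its place, after its values were seen. A dimmer probe set of Gabra4 had 23.4, 31.7 and 28.5 in Meis1cko mice against 19.3, 22.8 and 21.3 in control mice. The 25th percentile of the arrays was 20.8 to 22.6. The genotypes do not overlap there (log2 difference 0.39, unadjusted p = 0.0339 and adjusted p = 1.0 in limma). By brightest probe sets, 3.12% of all genes do not overlap in this direction. On the X chromosome the subunit genes on either side of Gabra3 had -0.04 for Gabre, which lies beyond Magea10, and -0.06 for Gabrq. Both were below the median intensity, changed sign when single arrays were left out, and were likewise named for their place.

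Gabbr1 encodes the subunit of the GABA-B receptor that binds GABA. Its brightest probe set (1455021_at) had the smallest spread of the 5 brightest probe sets, with 3275, 3009 and 3180 in Meis1cko mice and 3514, 3176 and 3374 in control mice. The genotypes overlapped by little, and the Meis1cko array was the lower one at each replicate number. The means were 3155 ± 135 in Meis1cko and 3355 ± 170 in control DRGs (SD, n = 3 mice each). The log2 difference was -0.09 (SE 0.11), and its 95% interval of -0.35 to 0.17 corresponds to a ratio between 0.784 and 1.13. Without the replicate 3 arrays it was again -0.09. Its SD within genotypes was larger than that of only 4.37% of the genes at or above the median intensity.

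The other Gabbr1 probe sets had log2 differences of the same sign, and they differed in how the replicate 3 arrays stood. On 1422051_a_at these arrays were the highest of their genotype, with 726 against 505 and 321 in Meis1cko mice and 1025 against 419 and 367 in control mice. On 1437188_at they were the lowest, with 344 in Meis1cko and 379 in control DRGs, where the others lay between 479 and 582. The log2 differences were -0.14 and -0.08, with intervals of -1.17 to 0.89 and -0.63 to 0.47, and that of 1422051_a_at turned to 0.04 without the replicate 3 arrays. The dim 1425595_at had 51.2, 53.5 and 49.7 in Meis1cko mice against 53.7, 57.8 and 57.2 in control mice, which do not overlap. By brightest probe sets, 3.82% of all genes do not overlap in this direction. The log2 difference of 1425595_at was -0.13 (adjusted p = 1.0 in limma).

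**Figure D3:**
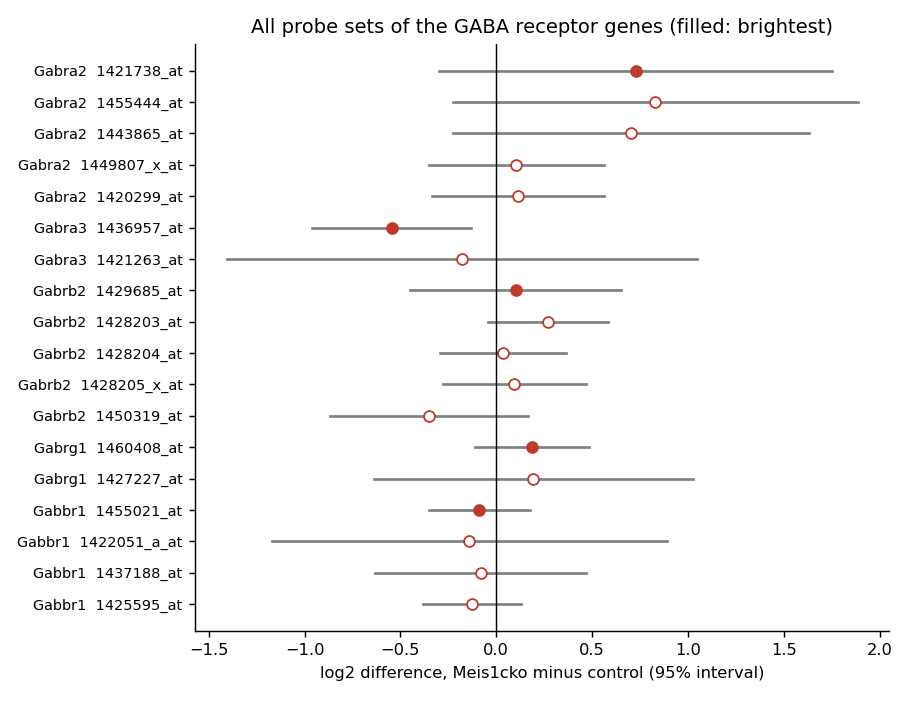
Log2 difference (Meis1cko minus control) of the 18 probe sets of the 5 measured genes with 95% intervals from limma, filled for the brightest probe set of a gene. Of the 18 intervals, 17 include 0, and that of the brightest Gabra3 probe set runs from -0.96 to -0.13.

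Over all 18 probe sets, 11 had a log2 difference above 0 and 7 below. All Gabbr1 and Gabra3 probe sets were below 0, all Gabra2 and Gabrg1 probe sets above 0, and those of Gabrb2 were on both sides. In the unpaired fit 1 of the 18 had an unadjusted p under 0.05, where 2.32% of all probe sets had. With the replicates paired 5 had, where 6.99% of all probe sets had, and none of them passed after adjustment. These 5 come from 3 genes, since 3 are the correlated probe sets of Gabra2, beside the brightest of Gabra3 and the dim 1450319_at of Gabrb2.

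The genes most like each member across the 6 arrays, among 12177 other genes at or above the median intensity, are given as a description. They share the arrays, the replicate 3 pattern included. Efnb3, Rps9 and Rcor2 were most like Gabra3, with r of 0.985, 0.982 and 0.975, and of these Efnb3 had a log2 difference of -0.52 on its brightest probe set. Vstm2b, Hs3st2 and Amph were most like Gabra2 (r of 0.981, 0.977 and 0.975), and Asap1, Anln and Zbtb11 were most like Gabrb2 (0.995, 0.988 and 0.988). For Gabrg1 they were Hinfp, Nfx1 and Zfp804a (0.995, 0.987 and 0.981), and for Gabbr1 they were Rps15, Orc3 and Arpin (0.996, 0.995 and 0.992). Among the members, Gabra3 had r of 0.84 with Gabbr1 and of -0.76 with both Gabra2 and Gabrg1.

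The other genes of the GABA system did not pass the adjusted threshold either. Of 54 listed genes 47 were measured, with 0 higher and 0 lower in limma and 0 with an unadjusted p under 0.05 in the unpaired fit. With the replicates paired, Slc6a13 (unadjusted p = 0.00928, adjusted p = 0.499 in limma) and Abat (0.0399 and 0.691) were under 0.05, where 6.99% of all probe sets were. The log2 differences of the 47 genes lay between -0.45 and 0.33, with a median of -0.01. The median was -0.01 over all genes and 0.10 over the 5 receptor genes described above.

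Of the 11 measured subunits of GABA-A receptors outside the members, 6 lay above 0 and 5 below, with a median log2 difference of 0.07. Only 3 were at or above the median intensity. Gabra4 had 0.26 and the delta subunit gene Gabrd 0.12, which was -0.0015 without Meis1cko replicate 3. Of the auxiliary subunits that bind GABA-B receptors, Kctd12b had 0.29 and Kctd8 -0.08. Kctd12b had differences of 1.04, 0.21 and -0.37 within the replicate numbers, and its log2 difference was 0.62 without the replicate 3 arrays (unadjusted p = 0.0215 and adjusted p = 0.998 in limma) and 0.09 without Meis1cko replicate 1.

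Among the proteins that carry GABA-B signals, the potassium channel gene Kcnj3 had 310, 264 and 252 in Meis1cko mice and 241, 251 and 222 in control mice on its brightest probe set. All Meis1cko mice lay above all control mice, by little, as they did for 3.12% of all genes. The log2 difference of Kcnj3 was 0.21 (SE 0.13, adjusted p = 1.0 in limma). Its other 3 probe sets had 0.02, 0.04 and 0.06, and the inhibitory G protein gene Gnai1 had 0.15 on its brightest probe set and -0.15 on its dimmest. The median of the 9 genes in this list was -0.01.

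Genes that make, move and degrade GABA had a median of -0.06 over 8 measured. Abat, which encodes the GABA transaminase, had 868, 621 and 574 in Meis1cko mice and 895, 839 and 767 in control mice, a log2 difference of -0.30 (SE 0.18, adjusted p = 1.0 in limma). Meis1cko replicate 1 lay among the controls and the other Meis1cko mice below them. The GABA transporter gene Slc6a11 had 0.21. The genes of the GABA-synthesizing enzymes and of the vesicular transporter were below the median intensity. Gad1 averaged 45.7 in Meis1cko and 33.1 in control DRGs, Gad2 22.04 and 23.96, and Slc32a1 63.3 and 60.8. The Gad1 mean rests on Meis1cko replicate 1, with 76.1, 35.2 and 25.9 in Meis1cko mice against 38.1, 34.7 and 26.5 in control mice. Its log2 difference of 0.33 was -0.12 without that array, and its other probe set had -0.27.

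Genes of receptor clustering and trafficking were at or above the median intensity in all 14 measured cases, with a median of -0.02. The phospholipase-related gene Plcl1 had 0.22, or 0.08 without Meis1cko replicate 1, and Gabarap, whose protein binds a gamma subunit, had -0.13. The chloride exporter gene Slc12a5 had -0.01 on its brightest probe set and 0.13 on the other. The probe sets of the chloride importer gene Slc12a2 differed. The brightest had -0.03, and the others, also above the median intensity, had -0.35 and -0.62. On the last of these the Meis1cko mice had 172, 346 and 199.8 and the control mice 420, 447 and 228, so that the genotypes overlapped. With the replicates paired these 2 probe sets had unadjusted p of 0.0359 and 0.0184 and adjusted p of 0.681 and 0.593 in limma. Without the replicate 3 arrays the log2 differences were -0.25 and -0.83.

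**Figure D4:**
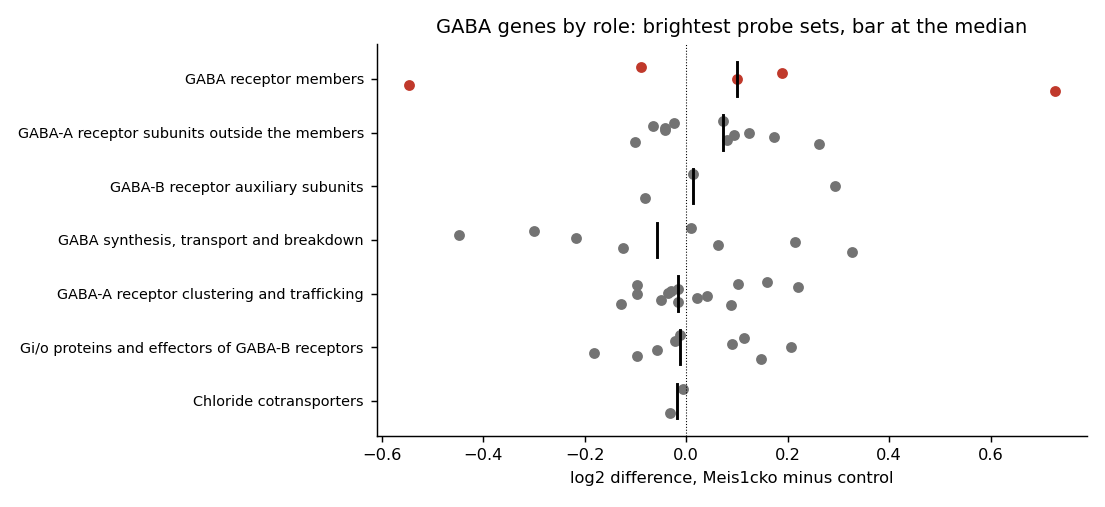
Log2 difference (Meis1cko minus control) of the brightest probe set of the 5 receptor genes and of 47 other GABA genes grouped by role, with a bar at each median. The receptor genes run from -0.55 (Gabra3) to 0.73 (Gabra2), and the other genes lie between -0.45 and 0.33.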

How the data were processed

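Total RNA of DRGs from 3 Meis1cko and 3 control mice at P60 was measured on Affymetrix mouse genome arrays. The authors deposited a normalized, linear intensity for each probe set, read with the Affymetrix GeneChip Command Console and processed in GeneSpring; how probes were summarised and normalized is not given in the sources used here. Each array was mapped to its genotype by its title.

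Intensities were taken to log2 without an offset. After 64 control probe sets were left out, 45037 were fitted without a block in limma 3.58.1 (lmFit, then eBayes; R 4.3.3), with Benjamini-Hochberg adjustment over the whole table and 0.05 as the threshold. The annotation gives 1 symbol for 34945 probe sets, several for 932 and none for 9160. Probe sets ending in x_at can bind other transcripts. Gene positions and promoters come from RefSeq on GRCm38.p6. The number of arrays limits the precision. The functions were tested on simulated data with independent noise on each array, which lacks the pattern that replicates share here.

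The named genes were every member, the 2 genes with the smallest p of each of 6 GABA lists and the 3 most alike genes per member. The members and lists were chosen with earlier results of these data known. Arrays of the same replicate number deviated together from their group means (r = 0.424, 0.535 and 0.766 for replicates 1, 2 and 3), so the label numbers were taken to pair the arrays, although nothing in the labels says what they stand for. Between different numbers r was 0.319 and 0.337 for replicates 1 and 2 and between -0.60 and -0.52 with a replicate 3 array. Deviations from a group mean cancel within each genotype, so a shift shared by the replicate 3 arrays alone also gives r above 0 among replicates 1 and 2. Pairing of replicates 1 and 2 therefore rests on a smaller difference in r than that of replicate 3. The paired p-values come from the same values that gave the pairing.

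Alternatives were the replicate block, array weights, a trended eBayes, quantile normalization, median centring, the methods' t-test, offsets of 16 and 50, leaving out probe sets under the median or under the 25th percentile, the mean of all probe sets of a gene, each array left out in turn, and both replicate 3 arrays left out. The last 2 were also run for the other GABA genes named, a choice made after seeing the data.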

Additional observations from a re-analysis of the deposited data

How the results depend on the processing

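No member passed the adjusted threshold under any of the 18 alternatives, and none of the other GABA genes did with the replicate block or without the replicate 3 arrays (0 higher and 0 lower each). The lowest adjusted p under an alternative was 0.257 for Gabra2 and 0.262 for Gabra3, both with array weights. Gabra2 kept a log2 difference above 0 and Gabra3 below 0 in all 18, between 0.32 and 1.22 and between -0.71 and -0.36, and so did Gabrg1 (0.15 to 0.27) and Gabbr1 (-0.13 to -0.05).

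The log2 difference of Gabrb2 changed sign when single arrays were left out, to -0.025 without Meis1cko replicate 1 and -0.053 without Meis1cko replicate 2, with 0.38 as the highest. At the thresholds of the methods, 1 member (Gabra2) was higher with the replicate block (0.429% of all genes) and 1 with array weights (0.583%). Leaving out single arrays gave 0 to 1 higher and 0 to 1 lower members at these thresholds. Without Meis1cko replicate 1 these were Gabra2, where 0.319% of all genes were higher, and Gabra3, where 0.819% were lower. Without control replicate 2 it was Gabra3, where 0.528% of all genes were lower. Of the genes whose genotypes did not overlap, 1 was higher with quantile normalization (Gabrg1; 3.84% of all genes), 2 were higher without both replicate 3 arrays (Gabrb2 and Gabrg1; 14.8%), and 0 were lower with the mean of all probe sets of a gene (3.93%). Without single arrays there were 0 to 2 higher (Gabra2 without Meis1cko replicate 1, where 8.33% of all genes did not overlap in this direction, Gabrb2 and Gabrg1 without Meis1cko replicate 3, with 12.0%, and Gabrg1 without control replicate 2, with 6.18%) and 1 to 2 lower (Gabra3 and Gabbr1 without control replicate 2, with 7.07%). The cause of these changes was not tested. Of the 19 other GABA genes named, refitted after the data were seen, 8 changed sign when single arrays were left out, with ranges of -0.0096 to 0.37 for Gabrb1, -0.0015 to 0.21 for Gabrd, -0.16 to 0.084 for Gabre, -0.14 to 0.018 for Gabrq, -0.12 to 0.66 for Gad1, -0.012 to 0.18 for Slc32a1, -0.13 to 0.13 for Slc12a2 and -0.16 to 0.22 for Slc12a5. Without both replicate 3 arrays Slc32a1 had -0.026, Slc12a2 0.044 and Slc12a5 0.064. The files give no detection calls, so how far a dim probe set lies above background is unknown.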

Other observations

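The transporter gene Slc6a13 had the lowest log2 difference of the 47 other GABA genes and was chosen after its values were seen, with a mean intensity of 85.2 in Meis1cko and 118 in control DRGs and a log2 difference of -0.45 (SE 0.33, adjusted p = 1.0 in limma). Control replicate 1 was the highest (175, against 90.3 and 88.4 in the other control mice), and without it the log2 difference was -0.12. Within the replicate numbers the differences were -0.59, -0.61 and -0.14, and without both replicate 3 arrays the log2 difference was -0.60. With the replicates paired, the unadjusted p was 0.00928 and the adjusted p 0.499 in limma. Control replicate 1 also had the most skeletal muscle marker signal, summing to 2788 against 229 to 874 on the other arrays. The fibroblast markers Lum and Col1a2 were lower in all Meis1cko mice than in all control mice on the same arrays, as 3.82% of all genes were. For the fibroblast markers Dcn, Col1a1 and Pdgfra the genotypes overlapped. The part of these markers in the Slc6a13 value was not tested.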
